A study of Mus musculus with 6 samples.

Results

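Dividing immune cells of the mouse liver were chosen by their own Mki67 and Top2a counts, as the cell barcodes with at least 1 unique molecular identifier (UMI, a tag that counts each captured RNA molecule once) of each of these genes, at least 200 genes and under 10% of UMIs from mitochondrial genes. The rule found 305 dividing cells among 23860 barcodes, of which 23720 passed the limits on genes and mitochondrial UMIs. There were 90 of 7120 kept barcodes in iNKT KO HFD+HDCA, 133 of 10174 in WT HFD+HDCA and 82 of 6426 in WT HFD. The 3 groups were Jα18-/- mice (Ja18-/- or iNKT KO in the labels) on a 60% high-fat diet (HFD) with 0.25% hyodeoxycholic acid (HDCA, a bile acid), wild-type (WT) mice on the same diet with HDCA, and WT mice on that diet without HDCA. All mice thus ate the high-fat diet, for 12 weeks, and a normal diet was not analysed here. Invariant natural killer T (iNKT) cells need the Jα18 segment for their receptor, and Jα18-/- mice lack it. The study's design and extraction text name a sort for CD45, carried by all white blood cells, while the treatment text names CD4. The presence of B, natural killer (NK) and myeloid cells below goes with the first of these. Each group had 1 RNA library and 1 T cell receptor (TCR) library. How many mice stand behind a library, and their age and sex, are details not given in the sources used here. No difference between groups could be tested, and every interval below is a 95% interval that covers counting error only.

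A cell that divides first copies its DNA, in S phase, and then sorts the copies to the daughters, in mitosis. Mki67 encodes Ki-67, which coats mitotic chromosomes and is lost from resting cells, Top2a encodes the topoisomerase that untangles copied DNA, and Stmn1 encodes stathmin, a microtubule regulator high in dividing lymphocytes. In the adult liver most lymphocytes rest, and T cells, NK cells and iNKT cells divide there after they meet antigen or growth cytokines such as IL-15, while most B cells and myeloid cells arrive from spleen and bone marrow.

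The share of kept barcodes that divided was 1.26% (95% interval 1.02% to 1.55%) in iNKT KO HFD+HDCA, 1.31% (1.10% to 1.55%) in WT HFD+HDCA and 1.28% (1.02% to 1.58%) in WT HFD. The 3 shares lay within each other's intervals. The ratio of the shares was 0.967 (0.732 to 1.27) for iNKT KO HFD+HDCA over WT HFD+HDCA and 1.02 (0.772 to 1.37) for WT HFD+HDCA over WT HFD. With every barcode cut at random to 2000 UMIs, the shares were 0.617%, 0.476% and 0.529% in the same order.

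The gene the rule did not use went with the label. Stmn1 was found in 77 of 90 dividing cells (85.6%) of iNKT KO HFD+HDCA, 110 of 133 (82.7%) of WT HFD+HDCA and 67 of 82 (81.7%) of WT HFD, against 13.7%, 13.2% and 13.3% of the other cells of these libraries. Dividing cells were also deeper, with a median of 15182, 17254 and 15968 UMIs, against 5184, 5605 and 5719 UMIs in the other cells. A deeper barcode passes the rule more easily, so shares after random thinning to 2000 UMIs are also given for lineages and subsets. The values that chose the cells are a description. The median dividing cell held 10, 7 and 8.5 UMIs of Mki67 and 9, 4 and 6.5 UMIs of Top2a in iNKT KO HFD+HDCA, WT HFD+HDCA and WT HFD, with a highest value of 69, 65 and 69 UMIs for Mki67 and of 48, 59 and 62 UMIs for Top2a. At the edge of the rule, 46 cells had exactly 1 UMI of each gene. Of those 46 cells 32.6% held Stmn1, at a median depth of 9419 UMIs, against 98.0% of the 204 cells with at least 2 UMIs of both genes. Just outside the rule were 520 cells with Mki67 and no Top2a, 23.1% of which held Stmn1, and 730 cells with Top2a and no Mki67, 18.8% of which held it. Doublets called by Scrublet were 4 of the 90, 8 of the 133 and 1 of the 82 dividing cells. These are 4.44%, 6.02% and 1.22%, against 4.01%, 4.86% and 3.58% of the other cells. The libraries shared 67 to 93 barcode sequences by pair, and no barcode was a dividing cell in more than 1 library.

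Lineages were read from TCR contigs first and from RNA second, with genes outside the rule. A cell with a TCR α contig joining TRAV11 or TRAV11D to TRAJ18 was an iNKT cell. A cell with both α and β contigs and no such α contig is called an αβ T cell below. Among cells without contigs, at least 3 UMIs of Cd79a (a part of the B cell receptor) marked B cells, at least 1 UMI of Ncr1 (the receptor NKp46) marked NK cells or the related innate lymphoid cells of group 1 (ILC1), and at least 5 UMIs of Lyz2 (lysozyme) marked myeloid cells.

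T cells made up most of the dividing cells of the 3 libraries together. Of all 305, 168 (55.1%) carried a TCR contig, with 140 αβ T cells, 23 iNKT cells and 5 cells with 1 kind of chain. By library these were 38 of 90 in iNKT KO HFD+HDCA, 74 of 133 in WT HFD+HDCA and 56 of 82 in WT HFD. T cells with contigs were thus most of the dividing cells in the WT libraries, and not in iNKT KO HFD+HDCA. NK cells or ILC1 gave 63 (20.7%), B cells 27 (8.85%), myeloid cells 16 (5.25%), cells with several markers 7 and cells with no marker 24. Over the 3 libraries together, the share of a lineage that divided was 2.70% of iNKT cells (23 of 852, interval 1.72% to 4.02%), 2.19% of NK cells or ILC1 (63 of 2881, 1.68% to 2.79%), 2.07% of αβ T cells (140 of 6770, 1.74% to 2.44%), 1.23% of myeloid cells (16 of 1298, 0.706% to 1.99%) and 0.317% of B cells (27 of 8514, 0.209% to 0.461%). iNKT cells, NK cells and αβ T cells, neighbours in that order, had overlapping intervals. In these shares over all libraries, B cells stood below the other lineages, and their interval did not overlap that of any of them.

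**Figure D1:**
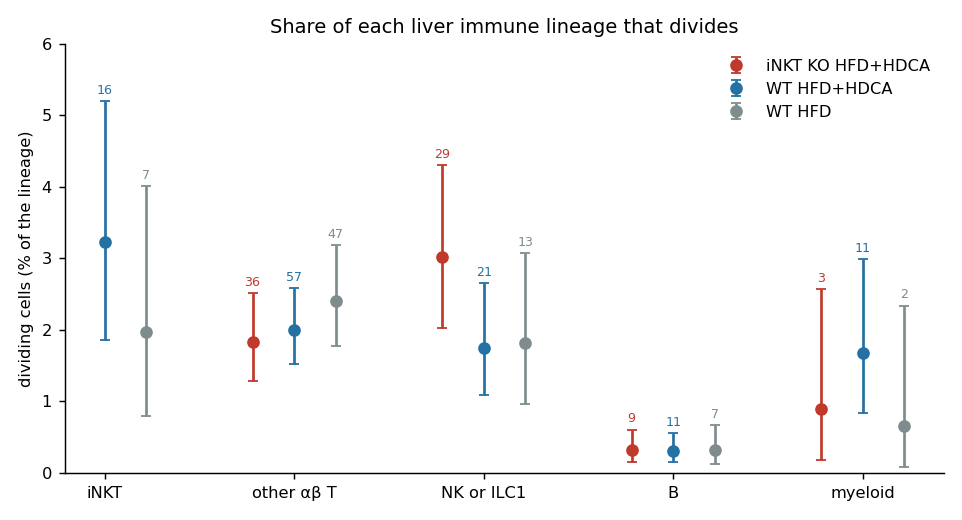
Share of each lineage that divides (y axis, % of the cells of the lineage) by lineage (x axis) and library (colour). Points are shares of 1 library, bars are exact 95% intervals for counting error, and the number above a bar is the number of dividing cells. B cells lie at 0.311% to 0.323% in all 3 libraries, αβ T cells at 1.83% to 2.41%.

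The low share of B cells against αβ T cells and NK cells or ILC1 was found in each library. It was 9 of 2813 B cells (0.320%) in iNKT KO HFD+HDCA, 11 of 3534 (0.311%) in WT HFD+HDCA and 7 of 2167 (0.323%) in WT HFD. The αβ T share divided by the B share was 5.71 (2.70 to 13.5), 6.43 (3.34 to 13.6) and 7.45 (3.34 to 19.5) in these libraries. For NK cells or ILC1 over B cells the ratio was 9.42 (4.34 to 22.6), 5.62 (2.59 to 12.9) and 5.61 (2.08 to 16.6). For myeloid cells over B cells it was 2.77 (0.483 to 11.1), 5.40 (2.12 to 13.7) and 2.02 (0.205 to 10.6). The interval thus includes 1 in iNKT KO HFD+HDCA and WT HFD. B cells were shallower, at a median of 4231, 4405 and 4511 UMIs, against 7299.5, 7389 and 7330.5 UMIs in αβ T cells. Thinning puts all cells at 1 depth. At 2000 UMIs, 1 of 2720, 1 of 3511 and 3 of 2138 B cells passed the rule, whereas the αβ T shares were 0.919%, 0.810% and 1.03%. Of myeloid cells, 1 of 319, 3 of 633 and 0 of 299 passed.

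Between libraries, the unthinned lineage shares differed by less than their counting error. αβ T cells divided at 1.83% (36 of 1970) in iNKT KO HFD+HDCA, 2.0% (57 of 2846) in WT HFD+HDCA and 2.41% (47 of 1954) in WT HFD, with ratios of 0.912 (0.584 to 1.41) for iNKT KO HFD+HDCA over WT HFD+HDCA and 0.833 (0.556 to 1.25) for WT HFD+HDCA over WT HFD. NK cells or ILC1 divided at 3.01% (29 of 962), 1.75% (21 of 1201) and 1.81% (13 of 718), with ratios of 1.72 (0.95 to 3.18) and 0.966 (0.461 to 2.10). After thinning, 20 of 923 NK cells or ILC1 passed the rule in iNKT KO HFD+HDCA and 8 of 1184 in WT HFD+HDCA, a ratio of 3.21 (1.35 to 8.42) that excludes 1 in this random draw. With at least 2 UMIs of both rule genes the ratio was 1.73 (0.909 to 3.37). The median depth of the lineage was 5900 UMIs in iNKT KO HFD+HDCA and 5737 UMIs in WT HFD+HDCA. Myeloid cells divided at 0.888% (3 of 338), 1.68% (11 of 654) and 0.654% (2 of 306). In make-up, NK cells or ILC1 were 32.2% of the dividing cells of iNKT KO HFD+HDCA, 15.8% of those of WT HFD+HDCA and 15.9% of those of WT HFD, against 13.3%, 11.8% and 11.1% of the other cells. αβ T cells were 40%, 42.9% and 57.3% of dividing cells, against 27.5%, 27.8% and 30.1% of the other cells.

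**Figure D2:**
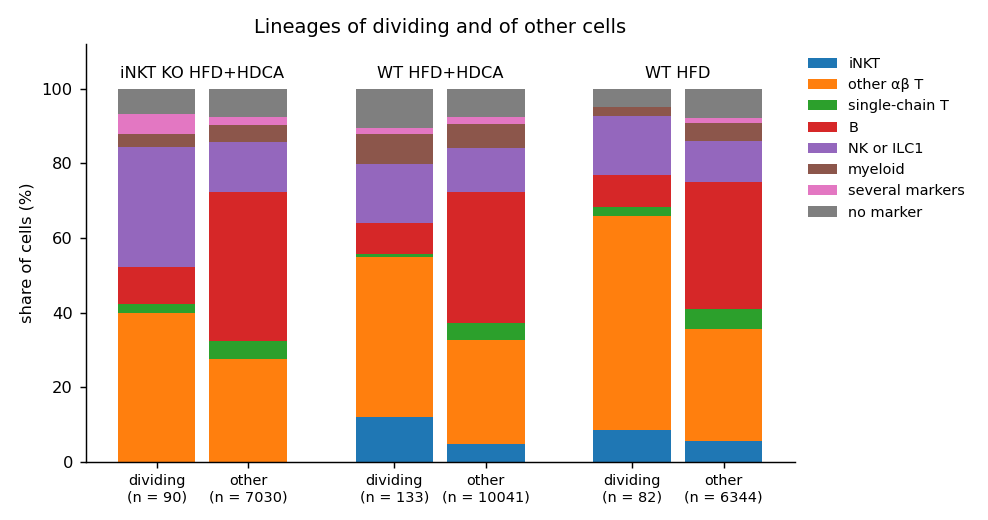
Lineage make-up (y axis, % of cells) of the dividing and of the other kept barcodes of each library (x axis, with the number of cells). B cells, in red, fill 34.0% to 39.9% of the other cells and 8.27% to 10.0% of the dividing cells, and NK cells or ILC1, in purple, fill 32.2% of the dividing cells of iNKT KO HFD+HDCA.

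The checks that follow give the level at which mostly resting cells or foreign signal pass these limits. Follicular B cells, taken as B cells with Fcer2a (CD23) and Ighd (IgD), mostly rest. Of these, 7 of 5211 passed the dividing rule (0.134%, 0.0540% to 0.277%) at a median depth of 4445 UMIs. Among the 7, 1 had exactly 1 UMI of each rule gene and 2 had at least 2 UMIs of both. Their median depth was 21465 UMIs. Whether the 7 cells divide was not tested, so their share is not a level of resting signal alone. The other B cells passed at 0.606% (20 of 3303, 0.370% to 0.934%), at a median of 4278 UMIs. Thinned, at most 3 cells of either kind passed in any library. Cd79a at the B limit was found in 13.2%, 12.2% and 12.5% of dividing T cells with contigs, against 6.80%, 6.77% and 6.44% of the other T cells, in iNKT KO HFD+HDCA, WT HFD+HDCA and WT HFD. The median depth was 17727.5, 16969.5 and 15377.5 UMIs in those dividing T cells and 7007.5, 7229 and 7278.5 UMIs in the others. Ncr1 at the NK limit was found in 6 of 38 (15.8%), 4 of 74 (5.41%) and 1 of 56 (1.79%) dividing T cells, against 3.60%, 4.23% and 3.59% of the other T cells, so it was most frequent in the dividing T cells of iNKT KO HFD+HDCA. Lyz2 at the myeloid limit was found in 2 of 38, 4 of 74 and 0 of 56 dividing T cells, against 1.71%, 1.77% and 1.27% of the others. A second TCR β chain, a sign of a doublet, was found in 3 of 36, 5 of 57 and 4 of 47 dividing αβ T cells, which is 8.33%, 8.77% and 8.51%, against 6.41%, 6.17% and 5.45% of the other αβ T cells. The part of doublets and free RNA in the lineage calls was not tested beyond leaving out the called doublets, which moved the shares by less than their counting error.

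Among αβ T cells, those without the naive pattern divided more often. Cells with both Ccr7, which guides T cells to lymph nodes, and Lef1, a transcription factor of naive T cells, are called naive-like. Naive-like αβ T cells passed the rule at 1.12% (42 of 3760, 0.806% to 1.51%) at a median of 8001 UMIs. The other αβ T cells passed at 3.26% (98 of 3010, 2.65% to 3.95%) although they were shallower, at 6565.5 UMIs. The other αβ T cells stood at 2.67% (23 of 860) in iNKT KO HFD+HDCA, 2.72% (37 of 1359) in WT HFD+HDCA and 4.80% (38 of 791) in WT HFD, against 1.17%, 1.34% and 0.774% of the naive-like cells. Thinned, the shares were 1.41%, 1.11% and 2.16% of the other αβ T cells and 0.542%, 0.538% and 0.258% of the naive-like cells. The share of these other αβ T cells was lower in WT HFD+HDCA than in WT HFD, with a ratio of 0.57 (0.35 to 0.92). WT HFD held 1 large clone, described below, with 16 dividing cells, of which 3 held Ccr7. This ratio was not taken without the clone. For all αβ T cells the ratio went from 0.833 to 1.22 (0.78 to 1.96) without it. CD8 T cells, here αβ T cells with Cd8a or Cd8b1 and no Cd4, divided at 2.29% (24 of 1047), 1.91% (30 of 1570) and 3.18% (30 of 944), and at 1.05%, 0.766% and 1.28% when thinned. CD4 T cells divided at 1.13% (5 of 441), 2.63% (17 of 647) and 1.31% (8 of 612), and at 0.690%, 1.40% and 0.655% when thinned. Regulatory T cells, marked by the transcription factor Foxp3, divided in 2 of 65, 7 of 121 (5.79%) and 4 of 61 (6.56%), and in 1 of 63, 3 of 120 and 1 of 60 when thinned. These subsets were chosen with their values known.

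Dividing αβ T cells were more often members of a clone. A clonotype here is a set of αβ T cells of 1 library with the same nucleotide CDR3 sequences over all their α and β contigs. CDR3s are the receptor loops that touch antigen. A cell with a contig missing or added thus counts outside its clone. Clonotypes of at least 2 cells held 17 of 36 dividing αβ T cells (47.2%, 30.4% to 64.5%) in iNKT KO HFD+HDCA, 21 of 57 (36.8%, 24.4% to 50.7%) in WT HFD+HDCA and 31 of 47 (66.0%, 50.7% to 79.1%) in WT HFD. Among the other αβ T cells the shares were 409 of 1934 (21.1%), 565 of 2789 (20.3%) and 336 of 1907 (17.6%). Read the other way, 3.99% (17 of 426), 3.58% (21 of 586) and 8.45% (31 of 367) of cells in such clonotypes divided, against 1.23% (19 of 1544), 1.59% (36 of 2260) and 1.01% (16 of 1587) of cells with a clonotype of their own. Contig calls do not use the 2 genes of the rule, but these clonotype shares were not taken at equal depth. Dividing αβ T cells had a median of 17727.5, 16339 and 15258 UMIs, against 7299.5, 7389 and 7330.5 UMIs in all αβ T cells. Cells with 1 kind of chain, which have no clonotype here, passed the rule at 0.432% (5 of 1157). Cells of 1 clone also share an ancestor and are not replicates. In WT HFD a single clonotype carried much of this. Without the largest clonotype of each library, the shares of dividing αβ T cells in clonotypes were 45.7% (16 of 35), 36.8% (21 of 57) and 48.4% (15 of 31), against 19.5%, 19.4% and 14.7% of the other αβ T cells.

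The largest clonotype of WT HFD held 82 cells, all with Cd8a or Cd8b1 and 2 of them also with Cd4, and 16 of them were dividing cells (19.5%, 11.6% to 29.7%). Of the 16, 8 had at least 2 UMIs of both Mki67 and Top2a and 0 were called doublets. The largest clonotypes of the other libraries held 1 dividing cell of 41 in iNKT KO HFD+HDCA and 0 of 31 in WT HFD+HDCA. Thinned to 2000 UMIs, 7 of the 82 cells of the WT HFD clone (8.54%) still passed. Without the clone, the CD8 T cells of WT HFD divided at 15 of 864, and the ratio for WT HFD+HDCA over WT HFD went to 1.12 (0.59 to 2.25) from 0.60 (0.35 to 1.03) with it. For αβ T cells as a whole it went to 1.22 (0.78 to 1.96) from 0.833 with the clone. The CDR3 sequences of its 3 chains are shown because they define the clonotype with the most dividing cells. By share, clonotypes of 2 or 3 cells with 2 dividing cells lie above it. They are read 5′ to 3′ from the contigs, with α chains from chromosome 14 and the β chain from chromosome 6. Capitals mark bases outside the ends that at least 90% of the distinct CDR3s with the same V or J segment share, which takes in the junction.
TRAV7-5 with TRAJ26: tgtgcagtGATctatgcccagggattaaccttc
TRAV7D-2 with TRAJ21: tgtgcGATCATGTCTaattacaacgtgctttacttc
TRBV13-3 with TRBJ1-4: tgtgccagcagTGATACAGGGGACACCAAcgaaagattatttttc

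Effector and inhibitory genes were found in both the dividing and the other cells of this clone, and at lower levels in dividing αβ T cells outside it. The genes were chosen after their values were seen. The 31 dividing cells outside the clone were a mix of αβ T cells. Of these 31, 16 held Cd8a and 9 held Ccr7, against 16 and 3 of the 16 dividing cells of the clone. The part of this mix in the differences was not tested. A cell of the clone with a contig missing or added would count among the 31. Coch was found in 15 of 16 dividing cells of the clone and in 3 of the 31. Whether those 3 belong to the clone was not tested. Gzmk, a granzyme protease, was found in 16 of 16 dividing cells of the clone and 66 of 66 of its other cells, against 14 of 31 dividing αβ T cells outside it. Its level was 1496 UMIs per 1000000 (CPM), 1489 CPM and 176 CPM in these groups. Pdcd1, the inhibitory receptor PD-1, was found in 15 of 16, 61 of 66 and 14 of 31 cells, at 681, 713 and 47.1 CPM. Havcr2, the inhibitory receptor TIM-3, was at 307, 291 and 14.5 CPM. Within the clone, Gzmb and Il10 had lower CPM in its dividing cells, with counting intervals that do not overlap. These intervals do not measure the spread between cells. The dividing cells were deeper, at a median of 14659.5 UMIs, against 8468.5 UMIs over the whole clone. Per cell, the medians of both genes went the other way. Gzmb had a median of 21 UMIs in dividing and 14 UMIs in other cells of the clone, and Il10 of 0.5 and 0.0 UMIs. Gzmb, another granzyme, was at 1849 CPM (1680 to 2030) in the dividing cells, against 2540 CPM (2411 to 2675) in the other cells of the clone and 317 CPM outside it. Lag3, an inhibitory receptor, was at 214, 323 and 30.8 CPM in these groups, with intervals that overlap within the clone. Tcf7, a transcription factor that T cells lose on terminal differentiation, was found in 0 of 16 dividing cells of the clone, which allows up to 12.6 CPM, in 3 of its 66 other cells (14.04 CPM) and in 23 of 31 dividing αβ T cells outside it (196 CPM). Il10, an inhibitory cytokine, was found in 8 of 16 dividing cells of the clone (71.4 CPM, 41.6 to 114) and 27 of 66 other cells (165 CPM, 133 to 202), and in 3 of 31 cells outside it (9.05 CPM). Glp1r, the receptor of the gut hormone GLP-1, was found in 4 of 16, 21 of 66 and 0 of 31 cells, at 33.6 CPM, 52.7 CPM and under a limit of 5.43 CPM. The 2 rule genes split the clone by construction, at 639 CPM of Mki67 in its dividing cells and 22.8 CPM in its other cells, against 720 CPM in dividing cells outside it.

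**Figure D3:**
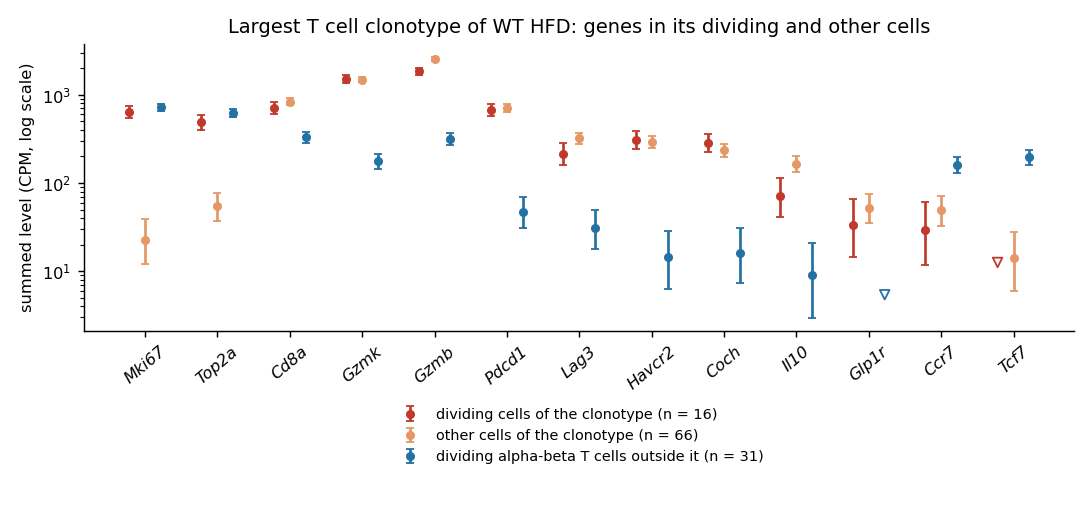
Summed level (y axis, CPM, log scale) of 13 genes (x axis) in the dividing cells of the largest WT HFD clonotype, its other cells and the dividing αβ T cells of WT HFD outside it. Points are levels with exact Poisson 95% intervals for counting error, and open triangles are limits where no UMI was found. Gzmk, Pdcd1 and Havcr2 lie together in both parts of the clone and lower outside it, and Tcf7 lies the other way.

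iNKT cells divided in both WT libraries. iNKT cells carry a nearly fixed α chain that reads lipid antigens on CD1d. Dividing iNKT cells were 16 of 495 (3.23%, 1.86% to 5.20%) in WT HFD+HDCA and 7 of 356 (1.97%, 0.794% to 4.01%) in WT HFD, a ratio of 1.64 (0.640 to 4.72), and 1.69 (0.385 to 10.1) after thinning. iNKT KO HFD+HDCA held 1 barcode with such a contig, and it did not divide. Their share was above that of αβ T cells in WT HFD+HDCA (ratio 1.61, 0.865 to 2.85) and below it in WT HFD (0.817), within counting error in both. Zbtb16, which encodes PLZF, the factor that sets the iNKT lineage, was found in 12 of 16 and 3 of 7 dividing iNKT cells, against 273 of 479 and 177 of 349 other iNKT cells, in WT HFD+HDCA and WT HFD. Klrb1c, the NK1.1 receptor of mature iNKT cells, was at 66.9 and 69.5 CPM in the dividing iNKT cells, against 220 and 204 CPM in the other iNKT cells of these libraries.

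The dividing iNKT cells were not 1 clone. Their CDR3α had 45 bases in all 23 cells and differed in 3 bases at the junction, with 9 distinct sequences. There were 8 among the 16 dividing cells of WT HFD+HDCA and 3 among the 7 of WT HFD. The 4 most frequent are shown, from chromosome 14 and 5′ to 3′, because the junction is the part of this chain that varies; capitals mark those 3 bases.
GGC junction: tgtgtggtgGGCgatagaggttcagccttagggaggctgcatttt
GGA junction: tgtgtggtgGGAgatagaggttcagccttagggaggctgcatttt
GGT junction: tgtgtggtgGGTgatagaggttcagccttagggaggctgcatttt
GGG junction: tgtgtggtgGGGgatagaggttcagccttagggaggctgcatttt
The GGC junction was held by 7 dividing cells of 315 iNKT cells, the GGA junction by 4 of 122, the GGT junction by 4 of 122 and the GGG junction by 3 of 219. β chains of the TRBV13 family were found in 12 of 16 dividing iNKT cells of WT HFD+HDCA and 7 of 7 of WT HFD, against 353 of 479 (73.7%) and 240 of 346 (69.4%) of the other iNKT cells with a β chain. Clonotypes of at least 2 cells held 2 of the 16 and 0 of the 7 dividing iNKT cells.

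Dividing NK cells or ILC1 had the NK receptors and none of the T cell gene Cd3e. Klrb1c (NK1.1) was found in 28 of 29 dividing cells in iNKT KO HFD+HDCA, 20 of 21 in WT HFD+HDCA and 12 of 13 in WT HFD. Cd3e, the CD3ε chain, was found in 0 of these 29, 21 and 13 cells. The other NK cells or ILC1 did hold CD3 transcripts, since Cd3g and Cd3e are among the lowest genes named below. The part of T cells without a contig among those other cells, in this and the following comparisons, was not tested. Klrg1, a receptor of mature NK cells, was found in 24 of 29, 17 of 21 and 6 of 13 dividing cells, against 385 of 933, 523 of 1180 and 222 of 705 other NK cells or ILC1. Cells with Klrg1 accordingly divided at 5.87% (24 of 409), 3.15% (17 of 540) and 2.63% (6 of 228), and at 4.59%, 1.30% and 1.32% when thinned. The libraries differed in Eomes, the factor that marks NK cells against ILC1. Eomes was found in 8 of 29, 18 of 21 and 5 of 13 dividing cells, against 344 of 933, 715 of 1180 and 425 of 705 other cells. Cells without Eomes divided at 3.44% (21 of 610) in iNKT KO HFD+HDCA, 0.641% (3 of 468) in WT HFD+HDCA and 2.78% (8 of 288) in WT HFD. The ratio was 5.37 (1.60 to 28.1) for iNKT KO HFD+HDCA over WT HFD+HDCA and 0.231 (0.0394 to 0.961) for WT HFD+HDCA over WT HFD. Cells with Itga1 or Cxcr6 and no Eomes, a pattern closer to ILC1, divided in 15 of 386, 2 of 168 and 6 of 124, and the ratios were 3.26 (0.759 to 29.4) and 0.246 (0.0243 to 1.38), and both intervals include 1. Cells with Eomes divided at 2.27% (8 of 352), 2.46% (18 of 733) and 1.16% (5 of 430). Itga1, the integrin CD49a of liver ILC1, was found in 16 of 29, 4 of 21 and 6 of 13 dividing cells, against 271 of 933, 129 of 1180 and 85 of 705 other cells. Thinned, 13 of 573 cells without Eomes divided in iNKT KO HFD+HDCA, 0 of 452 in WT HFD+HDCA and 3 of 279 in WT HFD. These splits were chosen with their values known, a cell without an Eomes UMI may still express it, and 3 dividing cells make the WT HFD+HDCA share.

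Dividing B cells lacked the follicular pattern more often than the other B cells. Fcer2a was found in 3 of 9 dividing B cells in iNKT KO HFD+HDCA, 4 of 11 in WT HFD+HDCA and 1 of 7 in WT HFD, against 2154 of 2804, 2808 of 3523 and 1791 of 2160 other B cells. Mef2b, a germinal centre transcription factor, was found in 5 of 9 dividing B cells of iNKT KO HFD+HDCA, 1 of 11 of WT HFD+HDCA and 2 of 7 of WT HFD. Sdc1 (CD138), a surface protein of plasma cells, was found in 0 of 9, 0 of 11 and 3 of 7, and Jchain, which joins IgM and IgA, in 4 of 9, 0 of 11 and 3 of 7 dividing B cells. Mef2b was thus most frequent in iNKT KO HFD+HDCA and Sdc1 was found in WT HFD alone, on 7 to 11 dividing B cells per library. Cd3e was found in 0 of 9, 1 of 11 and 2 of 7 dividing B cells, 2 cells of WT HFD holding 45 UMIs, and the part of T cell doublets there was not tested. With at least 2 UMIs of both rule genes the B share was 0.142% in iNKT KO HFD+HDCA and 0.0566% in WT HFD+HDCA.

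Dividing myeloid cells and cells with no marker included cells with progenitor genes in the WT libraries, at high depth. Mpo, the peroxidase of granule-forming neutrophil precursors, was found in 0 of 3, 4 of 11 and 0 of 2 dividing myeloid cells in iNKT KO HFD+HDCA, WT HFD+HDCA and WT HFD, against 1 of 335, 5 of 643 and 0 of 304 other myeloid cells. Elane, neutrophil elastase, was found in 0 of 3, 5 of 11 and 0 of 2. Over myeloid cells and cells with no marker, those with Mpo or Elane divided in 0 of 2, 9 of 30 (30%, 14.7% to 49.4%) and 1 of 1, and in 0 of 2, 0 of 30 and 0 of 1 when thinned. Among cells with no marker, Cd34 and Kit, markers of blood progenitors, were found in 0 and 0 of 6 dividing cells of iNKT KO HFD+HDCA, 7 and 6 of 14 of WT HFD+HDCA, and 3 and 2 of 4 of WT HFD. Cells with at least 2 of Cd34, Kit and Meis1, a progenitor transcription factor, divided in 0 of 12, 9 of 81 (11.1%) and 3 of 15, and in 0 of 12, 0 of 81 and 0 of 15 when thinned. Cells with fewer of these genes divided in 9 of 865, 16 of 1340 and 3 of 791, and in 1 of 721, 7 of 1116 and 0 of 658 when thinned. The thinned counts of 0 in cells with at least 2 of these genes have upper limits of 26.5%, 4.45% and 21.8%. These limits lie above the thinned shares of cells with fewer, such as 0.627% in WT HFD+HDCA. Thinning can therefore not tell whether the higher share holds at equal depth. In WT HFD+HDCA the median depth was 20549.5 UMIs in cells with Mpo or Elane and 13431 UMIs in cells with at least 2 of the 3 progenitor genes, against 7091.5 UMIs in cells with fewer. Csf1r, the receptor of monocytes and macrophages, was lower in dividing myeloid cells, at 203, 110 and 212 CPM, against 739, 571 and 599 CPM in the other myeloid cells. Cd3e was found in 3 of 6, 5 of 14 and 1 of 4 dividing cells with no marker, so that class may also hold T cells without a contig. The part of doublets and free RNA there was not tested.

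Dividing cells were caught at different points of the cycle. UMIs of 25 replication genes (licensing and DNA synthesis) and of 23 mitosis genes were summed in each cell. The median dividing cell held 70.0 replication and 39.5 mitosis UMIs in iNKT KO HFD+HDCA, 66.0 and 32.0 in WT HFD+HDCA, and 63.5 and 33.5 in WT HFD. Replication UMIs exceeded mitosis UMIs in 54 of 90 (60.0%), 79 of 133 (59.4%) and 51 of 82 (62.2%). The 3 shares thus lay between 59.4% and 62.2%. By lineage over all libraries, the share was 16 of 23 iNKT cells, 85 of 140 αβ T cells (60.7%), 18 of 27 B cells, 10 of 16 myeloid cells and 31 of 63 NK cells or ILC1 (49.2%). Cells with neither rule gene held a median of 3.0 replication and 0.0 mitosis UMIs over all libraries. The 46 cells with 1 UMI of each rule gene held 6.0 and 1.0. A cell near these levels can count as more replication without being in S phase, so the shares are not shares of a phase. Fewer than 10 UMIs over the lists together were held by 41 of the 305 cells. These were 11 of the 27 B cells, 21 of the 140 αβ T cells, 2 of the 63 NK cells or ILC1 and 0 of the 23 iNKT cells. The median iNKT cell held 100 replication and 65.0 mitosis UMIs, and the median B cell 12.0 and 8.0.

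**Figure D4:**
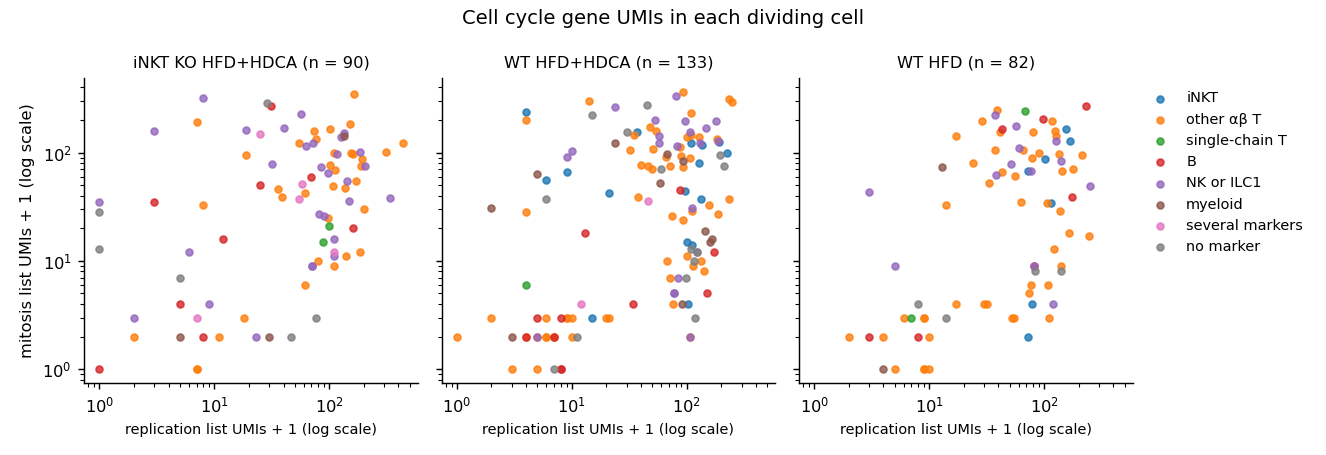
UMIs of mitosis genes against UMIs of replication genes (both + 1, log scales) in each dividing cell of iNKT KO HFD+HDCA, WT HFD+HDCA and WT HFD, coloured by lineage. Most cells lie at high replication, high mitosis or both, and 41 of 305 cells lie at the lower left with fewer than 10 UMIs over both lists together, 11 of them B cells.

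Within a lineage, dividing cells were set against the other cells of the same library. This is the contrast of the rule, so what follows is a description of the dividing cells with no test. Among αβ T cells, 568 of 10242 genes with at least 100 UMIs (5.55%) were at least 2-fold higher in dividing cells in all 3 libraries and 158 (1.54%) at least 2-fold lower. Among NK cells or ILC1, for which iNKT KO HFD+HDCA and WT HFD+HDCA had at least 20 dividing cells, 405 of 8491 genes (4.77%) were higher and 388 (4.57%) lower in both. Of the higher genes 301 were common to both lineages, 53.0% of the T and 74.3% of the NK genes. Of the lower genes 26 were common, 16.5% and 6.70%. The highest ratios in αβ T cells, by the library nearest to 1, were those of Esco2, which ties sister chromatids together, Mxd3, Ccna2 (cyclin A2), E2f8, Hmmr, Ska1, Bub1 and Neil3. Ccna2 was at 269.9, 266 and 257 CPM in dividing αβ T cells of iNKT KO HFD+HDCA, WT HFD+HDCA and WT HFD, against 0.38, 0.75 and 0.26 CPM in the other αβ T cells. The lowest were Igfbp4, Ly6c1, Slc28a2b, Patj, Tdrp, Rftn2, Slc6a19 and Mpeg1. Igfbp4, an insulin-like growth factor binding protein, was at 4.1, 4.0 and 17.7 CPM in dividing αβ T cells, against 237, 224 and 297 CPM in the others. In NK cells or ILC1 the highest were Mxd3, Neil3, Ccna2, Nusap1, Pclaf, Cenpf, H1f5 and Hmmr, and the lowest Cd3g, Tm7sf3, Cd3e, Kctd11, Kdm5b, Klra1, Fbxo32 and Tcp11l2. Cd3g and Cd3e are T cell genes, and the part of T cells without a contig in the lower genes was not tested.

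**Figure D5:**
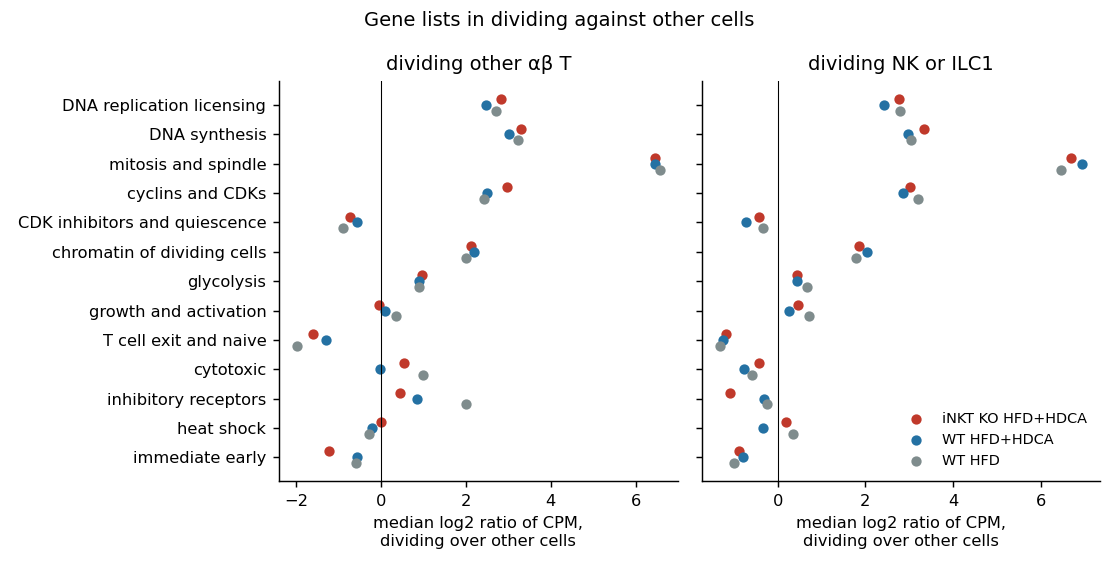
Median log2 ratio of CPM in dividing over other cells (x axis) for 13 gene lists (y axis), in αβ T cells (left) and NK cells or ILC1 (right), 1 point per library. The mitosis list lies at 6.46 to 6.95 in both lineages, the replication lists at 2.42 to 3.33, and the list of exit and naive genes at -1.97 to -1.17.

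Genes of DNA copying and mitosis were higher in dividing αβ T cells in every library, to unequal extent. On the log2 scale, the median of all genes measured was 0.18, 0.16 and 0.17 in iNKT KO HFD+HDCA, WT HFD+HDCA and WT HFD. The 10 licensing genes, which load the helicase on DNA, had a median of 2.83, 2.47 and 2.72, and all were higher in dividing cells in every library. Mcm6, a helicase subunit, was at 308, 226 and 323 CPM in dividing αβ T cells, against 70.0, 64.9 and 65.8 CPM in the others. The 15 DNA synthesis genes had a median of 3.30, 3.02 and 3.22. Rrm2, the regulated subunit of the enzyme that makes deoxyribonucleotides, was at 517, 377 and 378 CPM in dividing cells, against 2.4, 3.1 and 2.1 CPM in the others. The 23 mitosis genes had a median of 6.47, 6.46 and 6.57. Ube2c, which marks cyclins for destruction at the end of mitosis, was at 351, 547 and 460.5 CPM, against 1.8, 3.8 and 1.5 CPM. Mcm6 transcripts were thus present in cells that do not pass the rule and Ube2c transcripts nearly absent from them. Among cyclins and their kinases (medians 2.98, 2.50 and 2.43), the late Ccnb2 (cyclin B2) differed 87.8-, 50.4- and 119-fold, and Ccnd3 (cyclin D3), which acts before DNA copying, by ratios of 1.06, 0.94 and 0.85. Hmgb2, a chromatin protein, was at 3233, 3112 and 2997 CPM, against 279, 302 and 277 CPM.

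The genes of rest and of exit from tissue were lower. The 7 exit and naive genes had a median of -1.60, -1.28 and -1.97, and 0 of 7 were higher in dividing αβ T cells in any of the 3 libraries. The list holds Ccr7 and Lef1, which define the naive-like cells. Over the 3 libraries together, naive-like cells were 42 of the 140 dividing αβ T cells, against 3760 of all 6770 αβ T cells. The part of this mix in the values of this paragraph was not tested. Il7r, the receptor of the survival cytokine IL-7, was at 105, 142 and 72.1 CPM in dividing αβ T cells, against 597, 557 and 588 CPM in the others. Tcf7 was at 200.03, 254 and 137 CPM, against 516, 481 and 541 CPM. Btg1, which slows proliferation, was at 256, 329 and 314 CPM, against 779, 779.9 and 742 CPM. The 11 CDK inhibitors and quiescence genes had a median of -0.73, -0.56 and -0.89 but did not move as one. Cdkn2d, an inhibitor of the early cyclin kinases, was higher, with ratios of 2.04, 2.46 and 1.76. Glycolysis genes were modestly higher (medians 0.96, 0.90 and 0.89), as in Gapdh at 1815, 1303 and 1837 CPM, against 733, 608 and 761 CPM. Growth and activation genes stayed near the median of all genes, at -0.04, 0.10 and 0.36, as did heat shock genes, at 0.01, -0.20 and -0.27. Immediate early genes, which answer a fresh stimulus and cell handling alike, were lower, at -1.23, -0.56 and -0.58.

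Effector genes did not follow one pattern. In dividing αβ T cells the cytotoxic list had a median of 0.56, -0.02 and 1.0 and the inhibitory receptors of 0.45, 0.86 and 2.01 in iNKT KO HFD+HDCA, WT HFD+HDCA and WT HFD, the last with the large clone among its cells. Gzma, a granzyme, was higher in dividing αβ T cells, by ratios of 7.36, 3.58 and 3.58, and Ccl5, a chemokine, stood at ratios of 1.28, 0.61 and 1.71. In NK cells or ILC1 the cytotoxic list was lower, at -0.44, -0.77 and -0.59. Prf1 (perforin) was at 318 and 408 CPM in dividing NK cells or ILC1 of iNKT KO HFD+HDCA and WT HFD+HDCA, against 598 and 863 CPM in the others. Il2rb, the shared receptor chain of IL-2 and IL-15, was at 611, 656 and 771 CPM, against 1513, 1253 and 1415 CPM. The cell cycle lists of NK cells or ILC1 were close to those of αβ T cells, with mitosis medians of 6.69, 6.95 and 6.46 and DNA synthesis medians of 3.33, 2.97 and 3.04. In iNKT cells the mitosis medians were 6.15 in WT HFD+HDCA and 6.27 in WT HFD.

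The promoters of these lists were searched for cell cycle motifs, with no test. The promoter windows, from RefSeq on GRCm38.p6, run from 250 bases before the transcription start to 50 after it. Motifs were searched on both strands: TTTGAA or TTTAAA (the cell cycle homology region, CHR), CCAAT, and the E2F forms TTTCCCGC or TTTGGCGC. The CHR was in 17 of 20 mitosis promoters matched (85%), 3 of 8 licensing promoters and 27.9% of all 27025 promoters. CCAAT was in the same share of both lists, 15 of 20 mitosis and 6 of 8 licensing promoters, and in 37.8% of all. Both CHR and CCAAT were in 14 of the 20 mitosis promoters and in 10.8% of all. The E2F forms were in 5 of 8 licensing promoters (62.5%), 1 of 13 DNA synthesis promoters, 0 of 20 mitosis promoters and 1.62% of all. Such matches are letters in a window, and no binding was measured. One window of each kind is shown, that of the member with the most UMIs in dividing αβ T cells, to let the motif patterns be seen. Both read 5′ to 3′ on the strand of the gene, capitals mark the motifs, and CCAATTGG holds CCAAT on both strands with an overlap. The Ube2c window, on chr2:164769679-164769978, + strand, has 1 CHR, as TTCAAA on the other strand 29 bases before the start, and 6 CCAAT. The Mcm6 window, on chr1:128359656-128359955, - strand, has 0 CHR, 2 CCAAT and 2 E2F forms.
Ube2c: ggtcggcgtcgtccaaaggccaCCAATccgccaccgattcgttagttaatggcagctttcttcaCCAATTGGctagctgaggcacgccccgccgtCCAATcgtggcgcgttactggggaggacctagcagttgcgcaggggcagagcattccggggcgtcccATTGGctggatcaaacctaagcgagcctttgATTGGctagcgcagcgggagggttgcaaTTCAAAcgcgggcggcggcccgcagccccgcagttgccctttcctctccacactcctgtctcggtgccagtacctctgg
Mcm6: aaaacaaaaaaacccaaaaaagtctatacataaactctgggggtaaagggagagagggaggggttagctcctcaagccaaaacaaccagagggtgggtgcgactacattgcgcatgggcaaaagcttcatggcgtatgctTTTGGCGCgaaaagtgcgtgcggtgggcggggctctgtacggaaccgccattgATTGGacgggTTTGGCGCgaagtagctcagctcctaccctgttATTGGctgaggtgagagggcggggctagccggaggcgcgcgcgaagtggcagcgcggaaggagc

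Between libraries, dividing αβ T cells differed in few genes. Among genes with at least 50 UMIs, 60 of 5124 (1.17%) were at least 2-fold higher and 78 (1.52%) at least 2-fold lower in iNKT KO HFD+HDCA than in WT HFD+HDCA. In WT HFD+HDCA against WT HFD, 57 of 5222 (1.09%) were higher and 90 (1.72%) lower. The highest ratio of the first comparison was that of Mtmr9, a myotubularin-related protein, at 61.7 CPM in iNKT KO HFD+HDCA and 19.2 CPM in WT HFD+HDCA (ratio 3.21, 1.84 to 5.81), and the other αβ T cells of these libraries had a ratio of 3.56. Itgax (3.12), Slc39a6 (2.97) and H3c11 (2.53) came next. The lowest were Ptpn13 (0.177), Pink1 (0.287), Btla (0.295), an inhibitory receptor, and Ext1 (0.301). The lowest ratios of WT HFD+HDCA against WT HFD were those of the large WT HFD clone. Values without the clone may still hold cells of it with a contig missing or added. Coch had 2 UMIs in WT HFD+HDCA and 77 in WT HFD (ratio 0.0207), and 9 of the 77 without the clone (0.124, 0.0130 to 0.599). Havcr2 had 12 and 81 UMIs (0.118), and 8 of the 81 without the clone (0.837, 0.315 to 2.36). Lag3 had 14 and 68 UMIs (0.164), and a ratio of 0.460 (0.210 to 0.991) without the clone. Ms4a4a moved to the other side of 1, at 0.150 with and 1.67 (0.418 to 9.62) without the clone. The highest were Strada (3.85), Nsg2 (3.59), Wwp1 (3.27) and B9d2 (3.12), which stood at ratios of 2.40 to 3.14 without the clone.

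Dividing NK cells or ILC1 of iNKT KO HFD+HDCA, 29 cells, were set against the 21 of WT HFD+HDCA. Of 3122 genes, 52 (1.67%) were at least 2-fold higher and 28 (0.897%) at least 2-fold lower. Lgals3, galectin-3, had 232 UMIs in 25 of 29 cells and 27 UMIs in 3 of 21 cells, a ratio of 7.75 (5.19 to 12.0). The other NK cells or ILC1 of the same libraries showed a ratio of 16.4 for Lgals3, at 469.7 CPM in iNKT KO HFD+HDCA and 28.7 CPM in WT HFD+HDCA. S100a4, a calcium-binding protein, had 264 and 32 UMIs, a ratio of 7.44 (5.15 to 11.1), against 2.99 in the other cells. Sytl2 had a ratio of 4.35 and S100a6 of 4.06, against 1.30 and 1.92 in the other cells. The differences in Lgals3 and S100a4 were therefore present in dividing and in other cells of the 2 libraries. Among the lowest, Tmem254 had a ratio of 0.207, the tetraspanin Cd9 of 0.231 and the chemokine Ccl3 of 0.259, against 0.311, 0.737 and 0.716 in the other cells. Bcl2, which protects from apoptosis, had 29 and 87 UMIs, a ratio of 0.301 (0.190 to 0.463), against 1.07 in the other cells. The dividing NK cells or ILC1 of these libraries also differed in Eomes, found in 8 of 29 and 18 of 21 cells, and the part of that split in these ratios was not tested.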

How the data were processed

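Single-cell RNA and TCR libraries of 3 groups were used, 1 of each kind per group. The RNA matrices are counts of UMIs per gene and barcode, made by the authors with Cell Ranger 8.0.1, per the file headers; barcode and gene name files deposited beside them hold text. The TCR files are filtered contigs with deposited counts of UMIs and reads. The submitters' processing notes name both mm10 and GRCm39 as builds, without saying which files used which. Depth was 46600746 UMIs in iNKT KO HFD+HDCA, 70776925 in WT HFD+HDCA and 44332213 in WT HFD.

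The limits were 200 genes and 10% mitochondrial UMIs. Doublets stayed in the main values because the rule has no such filter. Contigs were joined to RNA by barcode. Thinning drew 2000 UMIs per barcode and left out 309, 291 and 185 shallower ones. Levels are summed UMIs per 1000000 (CPM). Shares carry exact Clopper-Pearson, levels exact Poisson and ratios conditional exact 95% intervals, and a count of 0 allows up to 3 counts. With 1 library per group no test was run. iNKT KO HFD+HDCA was not set over WT HFD, since genotype and HDCA differ together.

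Genes against other cells needed at least 100 UMIs and 2-fold in each library with at least 20 dividing cells, and between libraries at least 50 UMIs, 2-fold and no cell above 25% of the UMIs. The 8 highest and lowest, and between libraries the 4, were named; antigen receptor genes, gene models and mitochondrial, sex-linked and ribosomal protein genes were left out. List medians took genes with at least 20 UMIs and 1 UMI added per side. The cells, lists, subsets and named examples were chosen with earlier results of these data known. Code was tested on simulated data. Tools were python 3.11.15, numpy 2.4.6, scipy 1.17.1, pandas 2.3.3, scanpy 1.11.5 (Scrublet) and matplotlib 3.10.9. A withheld item is not reported here. Alternatives are listed in the closing section.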

Additional observations from a re-analysis of the deposited data

How the results depend on the processing

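No paired analysis was possible because each group had 1 library and no replicates. Over 12 alternatives, 443 of 512 values moved by less than their counting error, or by less than 1.5 times for counts of genes, and 69 moved more. A change of direction was looked for only in ratios whose main interval excludes 1, and no ratio of lineage shares had such an interval. Ratios near 1 did cross it. For iNKT KO HFD+HDCA over WT HFD+HDCA, the αβ T ratio was 0.912 in the main values. It was 1.23 with at least 2 UMIs of both rule genes and 1.13 after thinning. For all kept barcodes the ratio was 0.967, 1.19 and 1.30 in the same order. For αβ T cells of WT HFD+HDCA over WT HFD it was 0.833, and 1.22 without the largest clonotype. Among single genes, Ms4a4a in αβ T cells of WT HFD+HDCA over WT HFD stood at 1.67 without the largest clonotype and 0.150 with it. Values below are in the order iNKT KO HFD+HDCA, WT HFD+HDCA, WT HFD unless named.

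At least 2 UMIs of both rule genes lowered the dividing share to 0.969%, 0.816% and 0.809%. It also moved the B share to 0.142% in iNKT KO HFD+HDCA and 0.0566% in WT HFD+HDCA (2.41% of the dividing cells there), the αβ T share to 1.19% in WT HFD+HDCA and 1.54% in WT HFD, and the myeloid share to 0.765% in WT HFD+HDCA. Cells with no marker were at 0.0% in WT HFD, and the B ratio of WT HFD+HDCA over WT HFD at 0.307.

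Thinning to 2000 UMIs gave shares of 0.617%, 0.476% and 0.529% (ratio of iNKT KO HFD+HDCA over WT HFD+HDCA 1.30). In iNKT KO HFD+HDCA, αβ T cells were at 0.919%, B cells at 0.0368% (2.38% of dividing cells), NK cells or ILC1 made up 47.6% of dividing cells, and cells with no marker 0.0%. In WT HFD+HDCA, iNKT cells were at 1.42%, αβ T cells at 0.810%, B cells at 0.0285% (2.13% of dividing cells), NK cells or ILC1 at 0.676%, myeloid cells at 0.474% and cells with no marker at 0.709%. In WT HFD, αβ T cells were at 1.03%, NK cells or ILC1 at 0.849%, and myeloid cells and cells with no marker at 0.0%. The NK ratio of iNKT KO HFD+HDCA over WT HFD+HDCA was 3.21 and the B ratio of WT HFD+HDCA over WT HFD 0.203. Genes higher and lower in dividing cells numbered 255 and 53 in αβ T cells and 163 and 169 in NK cells or ILC1. Thinning takes away UMIs of the rule genes, so fewer cells pass by construction.

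One UMI of each lineage marker put cells with no marker at 2.22% of dividing cells in iNKT KO HFD+HDCA and 1.22% in WT HFD. A minimum of 30 UMIs gave 611 higher NK genes. Another alternative left out each library's largest clonotype. It was planned for the clonotype shares and added after the data were seen for the rest. The αβ T share of WT HFD was then 1.66%, 48.4% of its dividing and 14.7% of its other αβ T cells were in clonotypes, and 52 genes were lower in WT HFD+HDCA than in WT HFD. A minimum of 100 UMIs left 27 higher and 21 lower αβ T genes for iNKT KO HFD+HDCA over WT HFD+HDCA, 20 and 36 for WT HFD+HDCA over WT HFD, and 12 and 10 NK genes. Leaving out the cell with most UMIs of each gene left 27 higher αβ T genes in the first comparison and 57 lower in the second. Leaving out Scrublet doublets moved 1 of 79 values, and contigs of at least 3 UMIs, under 5% mitochondrial UMIs, amino acid clonotypes and leaving out T cells with B or myeloid markers moved none of 47, 50, 6 and 47 values.

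The small numbers of dividing cells, 1 to 57 per lineage and library where there are any, limit these shares, and mice within a group cannot be told apart.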
